A study of Mus musculus with 24 samples.

Results

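The AP-1 and EGR immediate early factors were followed as 10 genes, chosen by symbol: Fos, Fosb, Fosl1, Fosl2, Jun, Junb, Jund, Atf3, Egr1 and Egr2. All 10 were found among the 54532 genes of the count table, each under a single Ensembl identifier, and all 10 passed the filter on low counts that left 14261 genes tested. Fosb reached the filter's level in 7 of the 24 libraries and Fosl1 in 8, so these 2 genes were tested because of the groups in which they were higher.

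AP-1 is a pair of leucine zipper proteins bound to DNA. FOS family proteins (Fos, Fosb, Fosl1, Fosl2) need a partner, usually of the JUN family (Jun, Junb, Jund), and ATF3 belongs to the related ATF/CREB proteins. EGR1 and EGR2 are zinc finger factors whose genes, like Fos, are switched on by serum and growth factors through MAP kinases and the serum response factor. In macrophages these factors act on cytokine, protease and differentiation genes. TGF-β receptors phosphorylate SMAD2 and SMAD3, which enter the nucleus with SMAD4, and SMAD complexes can bind DNA beside AP-1.

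The cells were macrophages grown from tibial marrow of C57BL/6 mice aged 2 to 3 months, with interleukin-3 (WEHI-3 medium) and CSF-1. They were kept without serum for about 16 hours and then left untreated or given TGF-β1 at 10 ng/ml for 4 hours, the only time sampled. Of the 4 genotypes, Smad2fl carried a floxed Smad2 gene (Smad2fl/fl) and MyS2KO the same alleles with LyzM-Cre, while Smad3fl carried a floxed Smad3 gene (Smad3fl/fl) and MyS3KO those alleles with LyzM-Cre. LyzM-Cre is driven by the promoter of the lysozyme gene Lyz2, active in myeloid cells, and the floxed controls carried no Cre, so Cre and the deletion cannot be told apart. Each of the 8 groups had 3 libraries. The labels do not say that these came from separate mice, and their protocol speaks of 8 libraries where 24 samples were deposited, so p-values measure only the spread between libraries.

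Libraries held 16868501 to 24918582 counted reads. Levels are given as CPM, counts per 1e6 reads after scaling of the libraries. Smad3 was measured at 424 ± 48.2 CPM in untreated Smad3fl and 184 ± 24 in untreated MyS3KO (mean ± SD, n = 3), and at 415 ± 23.1 and 268 ± 19.8 with TGF-β1; in the Smad2 line it lay between 26.4 and 66.6. Smad2 was not lower in the libraries labelled MyS2KO, at 40.5 ± 2.9 CPM untreated against 42.2 ± 2.98 in Smad2fl and at 40.3 ± 6.31 against 37.7 ± 1.65 with TGF-β1. Whole-gene counts do not check the deletion of an exon. Lyz2 was at 6075 ± 760 CPM in those labelled MyS2KO against 11230 ± 399 in Smad2fl untreated, and at 4218 ± 152 against 8197 ± 736 with TGF-β1. In the Smad3 line it was at 2895 ± 1300 in MyS3KO against 4047 ± 2400 untreated, and at 2620 ± 1660 against 2729 ± 904 with TGF-β1. The 10 macrophage markers were all present, summing to between 15900 and 32640 CPM, and markers of T and NK cells and of mast cells and basophils each summed to less than 1 CPM. B cell markers summed to at most 4.36 CPM, dendritic cell markers to 14.2 to 39.5, and stromal and endothelial markers to 12.4 to 33. Neutrophil and precursor markers summed to 262 to 573 CPM, of which Csf3r, the G-CSF receptor, held 228.5 to 547.6, while S100a9 reached at most 7.78 and Ly6g at most 0.239. Erythroid and megakaryocyte markers summed to 69.2 to 264.4 CPM, nearly all of it Pf4 (68.6 to 264.2). Smad3fl libraries stood apart from each other: on the first principal component of log2 CPM untreated libraries 1, 2 and 3 scored 51.1, 53.5 and 3.28, and their Lyz2 was 2773, 2549 and 6818 CPM. Library 1 of MyS3KO stood apart as well. Its Lyz2 was 4391.5 CPM untreated against 2023 and 2269 in libraries 2 and 3, and 4518.5 against 1421 and 1921 with TGF-β1. On the second component the untreated MyS3KO libraries 1, 2 and 3 scored 35.5, 11.6 and 10.75. Of 10 TGF-β feedback genes such as Smad7, an inhibitor of the receptor, 8 rose with TGF-β1 in each of the 4 genotypes. In the single genotypes 3.41% to 12% of all tested genes were called.

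Promoter windows of Fos, Junb and Jun are shown because these genes, whose products pair in AP-1, moved in different directions under TGF-β1. Each is 250 bases ending just before the RefSeq start site, 5′ to 3′ on the gene's strand (build GRCm38.p6), with matches to the searched motifs in capitals. They lie at chr12:85473640-85473889 (plus strand) for Fos, chr8:84978749-84978998 (minus strand) for Junb and chr4:95052223-95052472 (minus strand) for Jun.
Fos: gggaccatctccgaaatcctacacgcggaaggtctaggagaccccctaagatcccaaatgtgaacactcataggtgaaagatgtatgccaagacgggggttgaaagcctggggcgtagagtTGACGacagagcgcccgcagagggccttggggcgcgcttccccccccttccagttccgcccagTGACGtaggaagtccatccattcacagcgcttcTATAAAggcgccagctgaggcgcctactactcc
Junb: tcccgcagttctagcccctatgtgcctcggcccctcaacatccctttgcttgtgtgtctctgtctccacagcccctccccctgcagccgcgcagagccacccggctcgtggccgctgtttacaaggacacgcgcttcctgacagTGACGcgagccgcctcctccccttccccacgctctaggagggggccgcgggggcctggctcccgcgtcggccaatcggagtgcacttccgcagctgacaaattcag
Jun: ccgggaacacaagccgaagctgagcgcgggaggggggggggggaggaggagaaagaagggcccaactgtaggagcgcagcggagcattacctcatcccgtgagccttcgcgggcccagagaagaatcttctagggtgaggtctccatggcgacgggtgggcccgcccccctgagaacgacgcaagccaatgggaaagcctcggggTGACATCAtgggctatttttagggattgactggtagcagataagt
The letters TGACG, the core of a cAMP response element, occurred in the Fos window at bases 129 to 125 and 66 to 62 before the start, and in the Junb window at bases 106 to 102. Of all 32851 promoter windows of this length, 17.8% held TGACG on either strand. The Fos window also held TATAAA at bases 33 to 28 (12.4% of windows hold it). The Jun window held TGACATCA at bases 45 to 38, a match to TGACNTCA, which 7.49% of windows hold. RefSeq windows were found for 8 of the 10 genes, all but Egr1 and Fosl1. The RefSeq start lies 671 bases from the gene start annotated with the counts for Fosl2, 1210 for Jund and 34706 for Atf3, and 2091 to 2455 bases inside the gene for 4 of the 5 Egr2 windows; for the remaining windows it lies within 30 bases. In these windows TGANTCA, the AP-1 site, occurred in none of the 8 (6.75% of windows hold it), and a CArG box, the serum response element's core, only in windows of Egr2 (1.47% of windows). A match describes the letters in the window and does not show a bound site. Bases further upstream than 250 were not searched, so a missing match does not mean that the gene lacks the element. On GRCm38 the 10 genes are all protein coding and lie on chromosomes 1 (Atf3), 4 (Jun), 5 (Fosl2), 7 (Fosb), 8 (Junb and Jund), 10 (Egr2), 12 (Fos), 18 (Egr1) and 19 (Fosl1). The last 351 bases of Junb overlap Prdx2 on the other strand, and 689 bases of Jun overlap Junos; strand use is not given, so their shared reads cannot be told apart.

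Within a library, levels were compared between genes per length, on the FPKM values of the authors. In untreated Smad2fl, Atf3 was at 868 ± 157 FPKM and Junb at 635 ± 164 (mean ± SD, n = 3), and these 2 were the highest of the 10 in every group. Jun followed at 138 ± 20.2, then Fos at 94.1 ± 12.4 and Jund, a JUN protein often found in resting cells, at 54.1 ± 13.3. Egr2 was at 8.5 ± 1.15, Egr1 at 5.85 ± 0.598 and Fosl2 at 5.31 ± 0.637. Fosl1 at 0.173 ± 0.11 and Fosb at 0.148 ± 0.0394 were the lowest. The libraries of Atf3 (686 to 963.5) and Junb (446 to 735.5) overlapped, and Egr1 and Fosl2, and Fosl1 and Fosb, differed by less than an SD of the higher gene. The order between genes depends on the length used: the FPKM of Fos rest on 1092 bases, where the gene length given with the counts is 2352, and with the latter Jund comes before Fos in untreated Smad2fl. Changes of a gene between groups do not depend on this length.

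Fos rose with TGF-β1 in all 4 genotypes. Untreated Smad2fl libraries 1, 2 and 3 held 86.7, 127 and 118 CPM and TGF-β1 treated libraries 426, 405 and 368. The libraries labelled MyS2KO held 109, 77.8 and 116 untreated and 303, 254 and 269 with TGF-β1. In Smad3fl the values were 242, 148 and 130.3 untreated and 665, 558 and 569.5 treated, and in MyS3KO 80.7, 107 and 84.6 and 359, 407 and 369. Every treated library was above every untreated library, across genotypes as well. Within Smad2fl, treated and untreated libraries did not overlap for 33.8% of all tested genes. That share was 18.4% in those labelled MyS2KO, 28.4% in Smad3fl and 24.9% in MyS3KO. The log2 change with TGF-β1 was 1.86 ± 0.20 (SE) in Smad2fl, 1.45 ± 0.20 in those labelled MyS2KO, 1.78 ± 0.20 for Smad3fl and 2.06 ± 0.20 for MyS3KO, with adjusted p between 1.64e-07 and 4.25e-05. Averaged over the 4 genotypes it was 1.79 ± 0.10 (adjusted p = 2.20e-12).

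**Figure D1:**
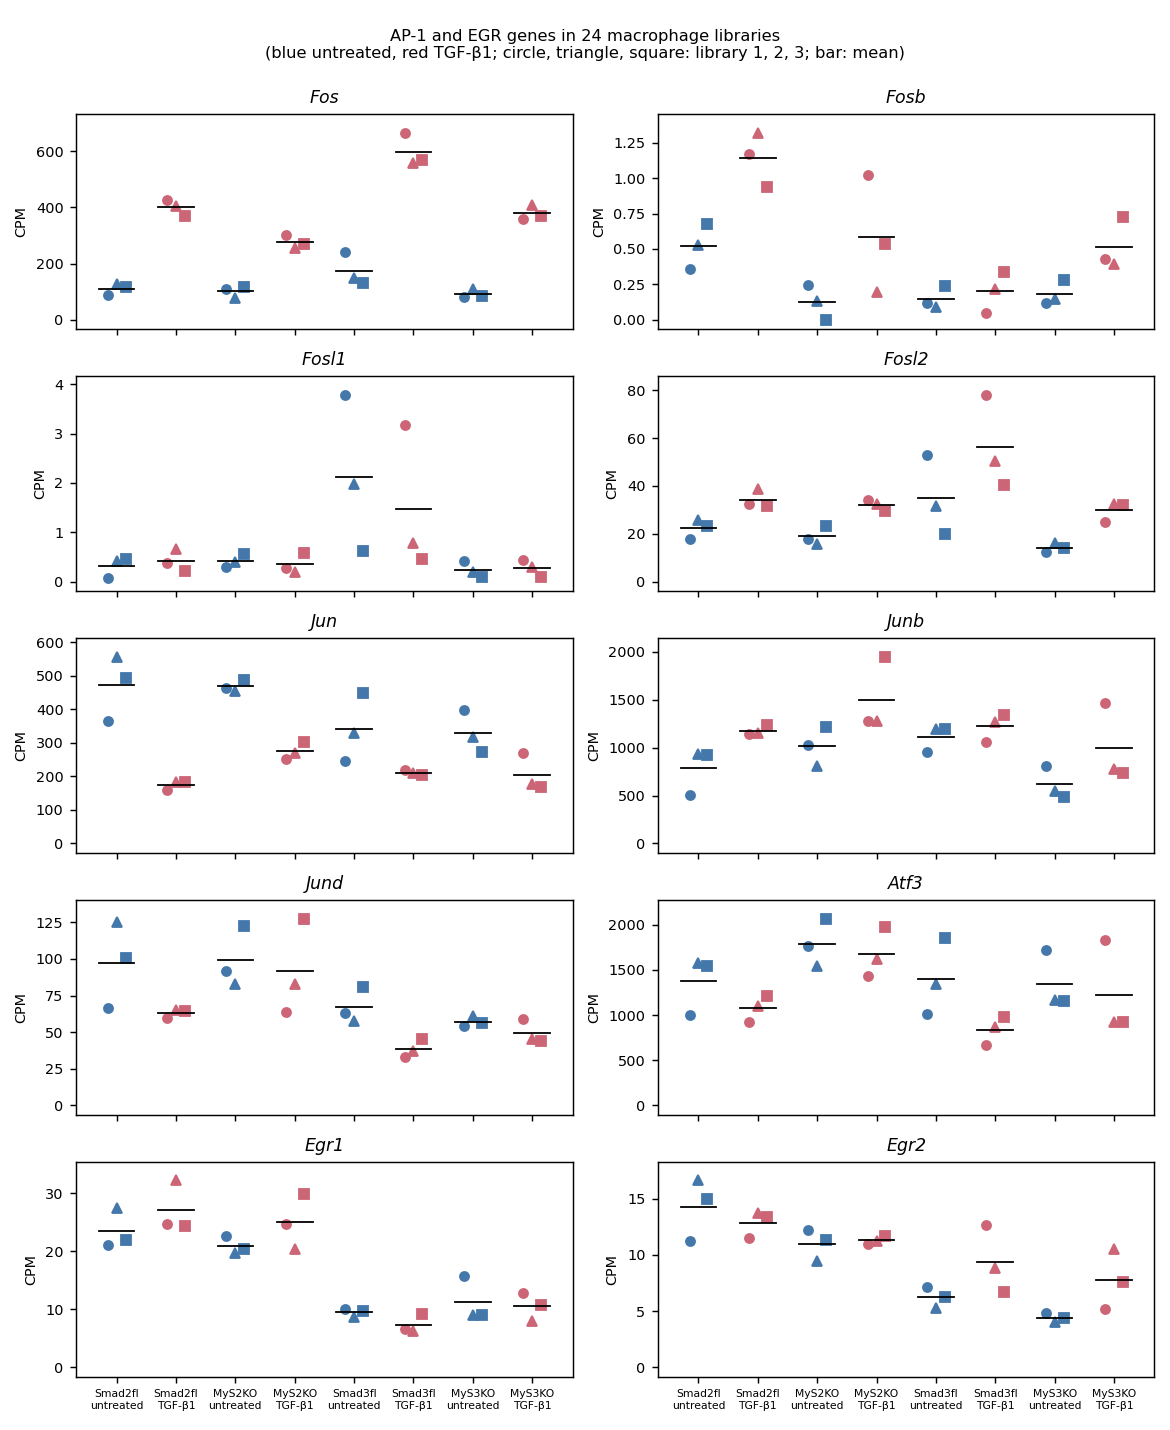
Level of each of the 10 genes in every library, in CPM on a linear axis, by genotype and treatment; points are libraries 1 (circle), 2 (triangle) and 3 (square), blue untreated and red TGF-β1, and black bars are group means. Fos sits between 77.8 and 242 CPM untreated and between 254 and 665 treated, while Jun moves down in each genotype, and the circle of Smad3fl is the highest point for Fosl1 and Fosl2.

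Jun, the founding JUN protein, fell in the same libraries. Smad2fl libraries held 366, 557 and 493 CPM untreated and 158, 184 and 184 with TGF-β1, and the libraries labelled MyS2KO 463, 454 and 489 and 253, 268 and 303. In Smad3fl the values were 245, 329.5 and 448 untreated and 218, 209 and 204 treated, and in MyS3KO 398, 318 and 272 and 269, 176 and 168. Within each genotype the treated libraries lay below the untreated ones, by a narrow gap in MyS3KO. The log2 change was -1.43 ± 0.20 (adjusted p = 2.64e-05) in Smad2fl, -0.77 ± 0.20 (adjusted p = 0.0301) in those labelled MyS2KO, -0.69 ± 0.20 (adjusted p = 0.0238) for Smad3fl and -0.69 ± 0.20 (adjusted p = 0.0294) for MyS3KO. Outside Smad2fl the call depended on single libraries. It was lost without any library labelled MyS2KO except treated library 3. In Smad3fl it was lost without untreated library 3 or any treated library, and in MyS3KO without untreated library 1 or 2 or treated library 2 or 3. Averaged over genotypes Jun fell, with a log2 change of -0.90 ± 0.10 (adjusted p = 2.60e-07), which held without each of the 24 libraries in turn.

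Counted together, 2 of the 10 genes were called in Smad2fl (Fos and Jun), where 11.1% of all tested genes were called. In the group labelled MyS2KO the same genes were called, 2 of 10, against 3.41% of tested genes. In Smad3fl 3 were called (Fos, Jun and Jund; 12% of tested genes), and in MyS3KO 4 (Fos, Fosl2, Egr2 and Jun; 10% of tested genes). In the average over genotypes 7 of 10 were called, 5 higher and 2 lower, against 30.1% of tested genes. The labels do not say what a shared library number means. Numbers were taken to pair treated with untreated libraries in Smad3fl and in those labelled MyS2KO, from shared deviations in these same data. For those labelled MyS2KO this is unsettled, as a differently numbered pair exceeded a same-numbered one. The main tests did not use the number. With the number as a block, Fosl2 (0.78 ± 0.14, adjusted p = 0.00179) and Junb (0.55 ± 0.13, adjusted p = 0.0141) were called too in the libraries labelled MyS2KO, making 4. In Smad3fl the block added Fosl2 (0.75 ± 0.14, adjusted p = 6.37e-04) and Atf3 (-0.72 ± 0.11, adjusted p = 1.30e-04), making 5. The block called 1032 of all tested genes in the former group, where 486 were called without it, and 3306 in place of 1714 in Smad3fl. Without both Smad3fl libraries numbered 3, Fos was the only member called in Smad3fl, where 999 of all tested genes were called.

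Fosl2, which encodes FRA-2, rose with TGF-β1 by 0.79 ± 0.13 on the log2 scale in the average over genotypes (adjusted p = 6.94e-05). Smad2fl libraries held 17.8, 25.6 and 23.4 CPM untreated and 32.6, 38.7 and 31.5 treated, and MyS3KO libraries 12.3, 16.2 and 14.2 and 25.1, 32.5 and 32.2. Smad3fl was more scattered, at 52.9, 31.7 and 19.7 untreated and 78.2, 50.4 and 40.4 treated, so that treated and untreated libraries overlapped there, while within each number the treated library was higher. In single genotypes only MyS3KO passed the test (1.07 ± 0.27, adjusted p = 0.0103), and this was lost without untreated library 1 (adjusted p = 0.0553).

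Fosb, best known from stimulated neurons, averaged a rise of 1.30 ± 0.36 (adjusted p = 0.00814) from very low levels. In Smad2fl, where it was highest, libraries held 0.358, 0.53 and 0.675 CPM untreated and 1.17, 1.32 and 0.94 treated. The 3 untreated Smad2fl libraries together held 32 Fosb reads and the treated ones 73. Untreated library 3 labelled MyS2KO held 0 reads, where 3 reads would be 0.151 CPM. No single genotype passed the test for Fosb. Of the 7 libraries in which Fosb reached the filter's level, 1 was untreated, in Smad2fl. Its rise thus rests on the groups that carried it through the filter. Fosl1, which encodes FRA-1, did not differ with TGF-β1 beyond its error in the average (-0.04 ± 0.44, adjusted p = 0.96).

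Junb, a JUN protein that often opposes JUN at its targets, rose by 0.49 ± 0.13 in the average (adjusted p = 0.00615) and passed the test in no single genotype. Its libraries held 509, 935 and 924 CPM in untreated Smad2fl and 1142, 1152 and 1242 with TGF-β1, without overlap. In Smad3fl the values were 954, 1194 and 1199 and 1059, 1271 and 1338, which overlapped. Jund fell in the average, with a log2 change of -0.44 ± 0.11 (adjusted p = 0.00461), and went from 63.4, 57.7 and 80.7 to 33.2, 37 and 45.2 CPM in Smad3fl, the only genotype in which it passed the test (-0.81 ± 0.23, adjusted p = 0.0206). That call was lost without Smad3fl untreated library 3, treated library 1 or treated library 2, and without both libraries numbered 1 or both numbered 3. In the libraries labelled MyS2KO Jund overlapped between treatments, at 92.1, 82.9 and 122 untreated and 64.1, 82.7 and 128 treated.

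**Figure D2:**
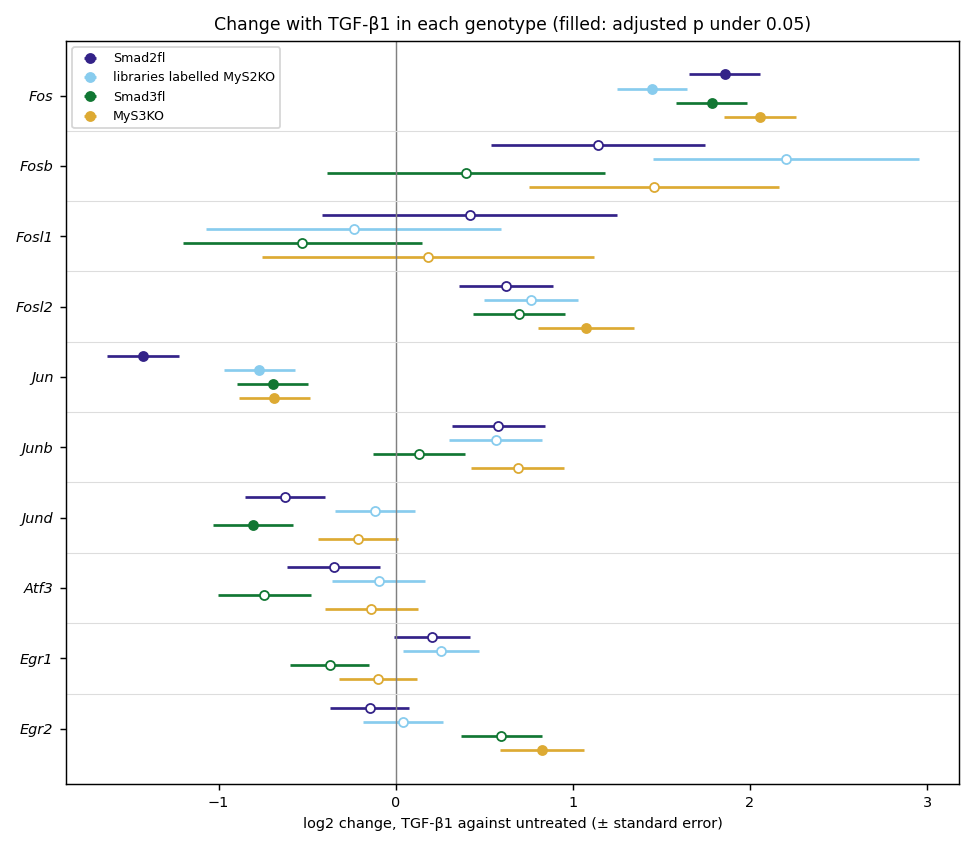
Log2 change with TGF-β1 (horizontal axis, points with standard errors) for each gene in each genotype, filled where the adjusted p was under 0.05. Fos lies to the right of 1.2 and Jun to the left of -0.4 in every genotype, and Egr1 lies on both sides of 0.

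Atf3, a stress-induced factor that restrains inflammatory genes in macrophages, missed the threshold in the average (-0.33 ± 0.13, adjusted p = 0.0596). It was abundant throughout, at 1373 ± 323 CPM in untreated Smad2fl and 1077 ± 144 with TGF-β1 (n = 3). The values were 1791 ± 263 and 1676 ± 277 in those labelled MyS2KO, 1404 ± 426 and 839 ± 156 for Smad3fl, and 1348 ± 323 and 1224 ± 528 for MyS3KO. The treated Smad3fl libraries (671, 866 and 979.9) lay below the untreated ones (1009, 1347 and 1856).

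Of the EGR factors, Egr1 showed no change with TGF-β1 that passed the test in any genotype, and its average was -0.00 ± 0.11. Egr2, a factor linked to macrophage differentiation, rose in MyS3KO from 4.83, 4.04 and 4.35 to 5.21, 10.6 and 7.58 CPM (0.83 ± 0.24, adjusted p = 0.0273) and by 0.33 ± 0.12 in the average (adjusted p = 0.0342). The MyS3KO call was lost without untreated library 2 or 3 or treated library 2 or 3. The average was lost without any of 8 libraries, with adjusted p up to 0.0852: untreated 1 and treated 2 and 3 of Smad2fl, untreated 2 labelled MyS2KO, untreated 2 and treated 1 of Smad3fl, and untreated 2 and treated 2 of MyS3KO. In Smad2fl Egr2 overlapped between treatments (11.2, 16.6 and 15 untreated, 11.5, 13.7 and 13.4 treated).

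The ratio of Fos to Jun transcripts, each a single gene of its family, differed between treatments. Per length, the ratio of Fos to Jun FPKM in Smad2fl was 0.692, 0.666 and 0.697 in untreated libraries 1, 2 and 3 and 7.88, 6.43 and 5.84 in treated ones. In the libraries labelled MyS2KO its mean went from 0.627 ± 0.11 (SD, n = 3) to 2.95 ± 0.483, in Smad3fl from 1.68 ± 1.07 to 8.27 ± 0.572, and in MyS3KO from 0.829 ± 0.21 to 5.68 ± 1.56. Treated libraries did not overlap with untreated ones in any genotype. The height of the ratio rests on the lengths behind the FPKM; its change does not. Within the JUN family Junb made up 76.5 ± 2.4% of the summed FPKM in untreated Smad2fl and 91.7 ± 0.46% with TGF-β1, while Jun went from 16.9 ± 2.1% to 4.91 ± 0.33%. In MyS3KO the Junb share was 79.2 ± 2.2% untreated and 89.9 ± 1.4% treated. Within the FOS family Fos made up 94.2% to 97.8% of the summed FPKM in each group, and Fosl2 most of the rest. Summed over its genes, the FOS family held 99.7 ± 13.2 FPKM untreated and 376 ± 34.7 treated in Smad2fl. The JUN family held 827 ± 195 and 1118 ± 32.9 there. In every group the JUN sum was above the FOS sum. These shares, sums and ratios are descriptions and were not tested. Bulk RNA does not tell more transcript per cell from more cells holding it.

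**Figure D3:**
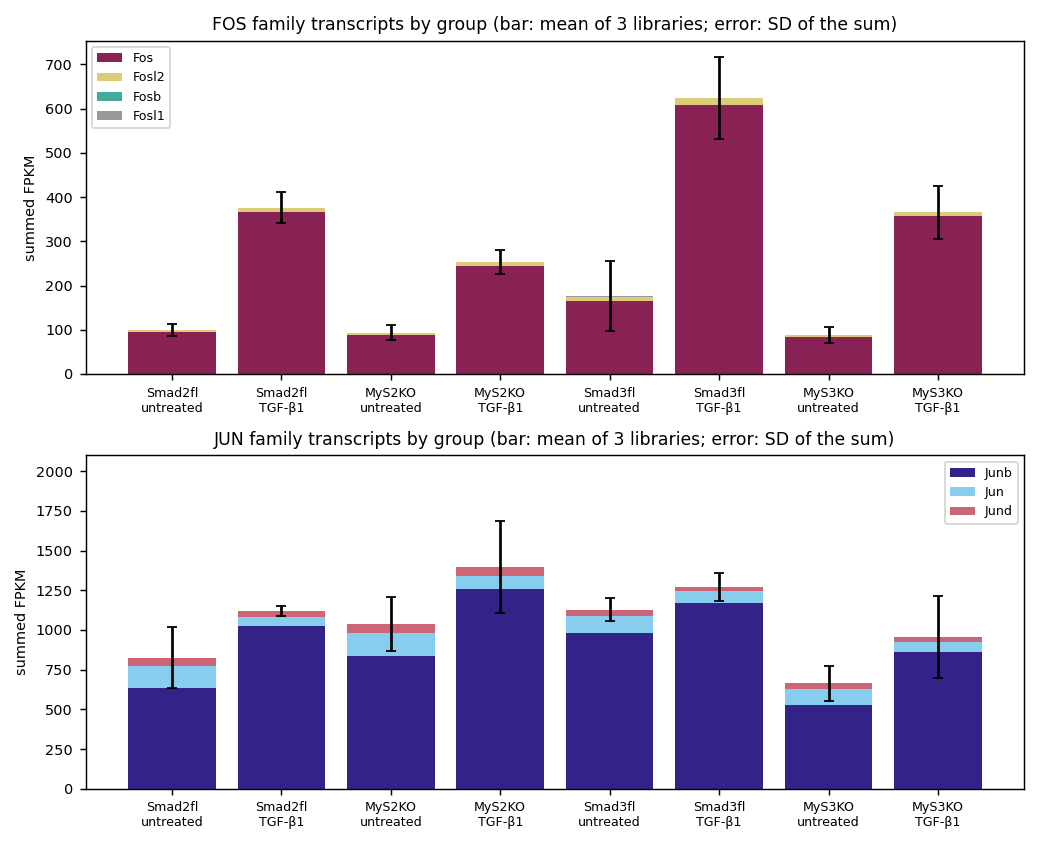
Summed FPKM of the FOS family (upper panel) and the JUN family (lower panel) in each group, stacked by gene; bar heights are means of 3 libraries and error bars the SD of the sum. Fos fills nearly the whole FOS bar, and Junb takes a larger part of the JUN bar in each TGF-β1 group than in its untreated group.

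Between the libraries labelled MyS2KO and Smad2fl, none of the 10 genes passed the test, untreated (0.0701% of tested genes called) or with TGF-β1 (0.421%). By unadjusted p under 0.05 in edgeR, 1 gene differed untreated (Fosb) and 4 with TGF-β1, and DESeq2 called 0 in both. With TGF-β1 the lowest p was that of Jun, at 253, 268 and 303 CPM labelled MyS2KO against 158, 184 and 184 in Smad2fl (0.65 ± 0.20, adjusted p = 0.2), with no overlap. Fos lay the other way, at 303, 254 and 269 against 426, 405 and 368 (-0.54 ± 0.19, adjusted p = 0.308), also without overlap. Between these treated groups 19.4% of all tested genes did not overlap. A fit of the compared groups alone called 3 members there (Fos, Jun and Atf3) and 270 of all tested genes. The difference between the TGF-β1 responses, the interaction, was called for none of the 10 (0.00701% of tested genes). For Jun it was 0.66 ± 0.28 (adjusted p = 1), its unadjusted p being 0.0295, and 1 of 10 was under 0.05 unadjusted; for Fos it was -0.41 ± 0.28 (adjusted p = 1). DESeq2 called 0 here too.

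In the Smad3 line the knockout libraries held less Fos, Fosl1 and Fosl2 than Smad3fl, but not less Fosb. Untreated, 4 of 10 genes were lower in MyS3KO and 0 higher: Fos, Fosl1, Fosl2 and Junb. Of all tested genes 17.7% were called, and 9.38% were called lower. With TGF-β1, 3 of 10 were lower (Fos, Fosl1 and Fosl2), where 28.2% of all tested genes were called and 13.2% were called lower. Fosb lay the other way and was not called, at 0.33 ± 0.79 (adjusted p = 0.819) untreated and 1.39 ± 0.70 (adjusted p = 0.138) with TGF-β1. Treated MyS3KO libraries held 0.429, 0.397 and 0.724 CPM of Fosb against 0.0453, 0.22 and 0.336 in Smad3fl, without overlap but from few reads.

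Fosl2 had the lowest p untreated, at 12.3, 16.2 and 14.2 CPM in MyS3KO against 52.9, 31.7 and 19.7 in Smad3fl (-1.29 ± 0.27, adjusted p = 0.00221). With TGF-β1 it was 25.1, 32.5 and 32.2 against 78.2, 50.4 and 40.4 (-0.91 ± 0.26, adjusted p = 0.0143). Knockout and floxed libraries did not overlap in either state, as for 25.7% of all tested genes untreated and 46.4% with TGF-β1. Fos had a log2 difference of -0.93 ± 0.20 (adjusted p = 0.00237) untreated and -0.66 ± 0.19 (adjusted p = 0.0161) with TGF-β1, from the library values given above, again without overlap. That of Junb was -0.86 ± 0.26 (adjusted p = 0.0267) untreated, at 812, 547 and 489.9 against 954, 1194 and 1199. With TGF-β1 MyS3KO library 1 was the highest for Junb (1468, 776 and 737 against 1059, 1271 and 1338) and the difference missed the threshold.

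Fosl1 had the largest change, from few reads. Of the 8 libraries in which it reached the filter's level, 3 were untreated and 2 treated Smad3fl. Its difference thus rests on the groups that carried it through the filter. Untreated MyS3KO libraries held 0.417, 0.197 and 0.0936 CPM, 13 reads in all, against 3.79, 1.98 and 0.611 in Smad3fl with 152 reads (-3.19 ± 0.81, adjusted p = 0.00907). With TGF-β1 the values were 0.429, 0.298 and 0.0852 and 3.17, 0.792 and 0.448 (-2.49 ± 0.80, adjusted p = 0.0253). Smad3fl library 1 of both treatments held the most Fosl1, Fosl2 and Fos of its group. Without both of these libraries Fosl1 was -2.47 ± 0.76 untreated (adjusted p = 0.0409) and -1.24 ± 0.78 with TGF-β1 (adjusted p = 0.261), so the latter call was lost. Fos (-0.61 ± 0.18 untreated, -0.58 ± 0.18 treated) and Fosl2 (-0.85 ± 0.21 and -0.60 ± 0.21) stayed called.

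Other left-out libraries moved these calls as well. With the compared groups fitted alone, none of the 4 untreated calls passed (adjusted p between 0.0728 and 0.0881). The untreated Fosl1 call was lost without Smad3fl library 1 or MyS3KO library 3, and that of Junb without Smad3fl library 2 or MyS3KO library 2 or 3. With TGF-β1, Fos was lost without Smad3fl library 1 or MyS3KO library 1 or 3, Fosl1 without Smad3fl library 1 or MyS3KO library 2 or 3, and Fosl2 without Smad3fl library 1 or MyS3KO library 1. Of 10 macrophage markers, 2 were called higher and 1 lower in MyS3KO untreated, and 2 higher and 0 lower with TGF-β1. Over all tested genes the shares called were 17.7% and 28.2%. Of 8 tested neutrophil and precursor markers, 0 were called untreated and 1 higher and 1 lower with TGF-β1. Their part in the result was not tested.

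**Figure D4:**
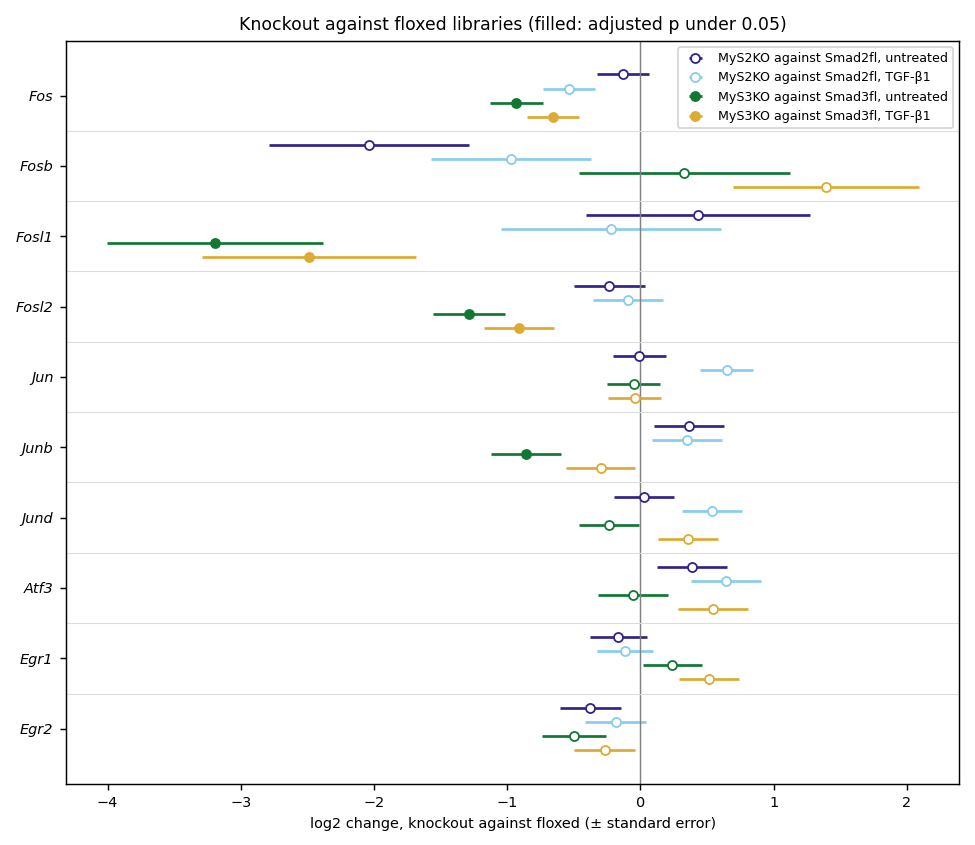
Log2 change of knockout against floxed libraries (horizontal axis, points with standard errors) for each gene, untreated and with TGF-β1, filled where the adjusted p was under 0.05. Filled points lie only among the Smad3 line comparisons and only to the left of 0, for Fos, Fosl1, Fosl2 and, untreated, Junb.

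Jun, by contrast, lay close to 0 between MyS3KO and Smad3fl with log2 differences of -0.05 ± 0.20 untreated (adjusted p = 0.897) and -0.04 ± 0.20 with TGF-β1 (adjusted p = 0.894). The TGF-β1 response itself was not called different between MyS3KO and Smad3fl for any of the 10 genes (0.021% of tested genes called). No member had an unadjusted p under 0.05 in edgeR, the lowest being 0.0775 for Jund, and DESeq2 called 0. The interaction was 0.27 ± 0.28 for Fos, 0.38 ± 0.37 for Fosl2, 0.01 ± 0.28 for Jun and 0.59 ± 0.32 for Jund. With 3 libraries per group a difference within these errors was not detectable.

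The floxed lines were compared with each other as well. Untreated, 4 of 10 genes were called between Smad3fl and Smad2fl (33.4% of tested genes), Fos and Fosl1 higher in Smad3fl and Egr1 and Egr2 lower. With TGF-β1, 5 of 10 were called (25.3% of tested genes), Fos and Fosl2 higher and Fosb, Jund and Egr1 lower. Line and any difference in handling cannot be told apart here.

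Egr1 was the clearest of these. Untreated Smad3fl held 9.98, 8.74 and 9.77 CPM against 21.2, 27.5 and 22 in Smad2fl (-1.31 ± 0.22, adjusted p = 1.41e-04), and with TGF-β1 6.53, 6.29 and 9.23 against 24.7, 32.2 and 24.4 (-1.89 ± 0.22, adjusted p = 5.12e-06). The values of MyS3KO (15.7, 9.08 and 8.98 untreated, 12.8, 7.99 and 10.7 treated) also lay below every Smad2 line library. Between the floxed lines 38.4% of all tested genes did not overlap untreated and 50.9% with TGF-β1. Egr2 was lower untreated, at 7.1, 5.27 and 6.29 against 11.2, 16.6 and 15 (-1.20 ± 0.23, adjusted p = 5.85e-04). These Egr1 and Egr2 calls held without each library in turn. Fos was higher by 0.65 ± 0.20 (adjusted p = 0.0143) untreated and 0.58 ± 0.19 (adjusted p = 0.0325) with TGF-β1, and Fosl1 by 2.75 ± 0.77 (adjusted p = 0.00983) untreated. With TGF-β1 the log2 difference was 0.72 ± 0.26 (adjusted p = 0.048) for Fosl2, -2.52 ± 0.67 (adjusted p = 0.00934) for Fosb and -0.71 ± 0.23 (adjusted p = 0.0257) for Jund. All 3 untreated Smad3fl libraries reached the filter's level for Fosl1, and all 3 treated Smad2fl libraries for Fosb. These contrasts of Fosl1 and Fosb thus use the groups that carried each gene through the filter.

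Without both Smad3fl libraries numbered 1, 2 members remained called in each state, Egr1 and Egr2, the treated Egr2 call being new. Of all tested genes 3248 were then called untreated and 2527 with TGF-β1. Fos was then 0.33 ± 0.18 untreated (adjusted p = 0.176) and 0.50 ± 0.18 treated (adjusted p = 0.0544), Fosl1 2.03 ± 0.73 untreated (adjusted p = 0.0504), and Fosl2 0.41 ± 0.21, Fosb -2.04 ± 0.73 and Jund -0.62 ± 0.26 treated (adjusted p between 0.0571 and 0.181). Without both numbered 3, 8 members were called untreated, where 5836 of all tested genes were called in place of 4762. The untreated Fos call was also lost without Smad2fl library 1. The treated Fos and Fosl2 calls were each lost without any library but Smad3fl library 3, that of Jund without Smad2fl library 2 or 3 or Smad3fl library 1 or 2, and that of Fosb without Smad3fl library 1. Of the macrophage markers 4 of 10 were called lower in Smad3fl untreated (33.4% of all tested genes called) and 5 with TGF-β1 (25.3%), and their part was not tested.

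The genes around these factors were taken from lists of other AP-1 partners, immediate early genes, upstream factors and known targets. Over all tested genes, 30.1% were called in the average TGF-β1 response. Between MyS3KO and Smad3fl the share was 17.7% untreated (9.38% called lower) and 28.2% with TGF-β1 (13.2% called lower). Between the libraries labelled MyS2KO and Smad2fl it was 0.0701% untreated and 0.421% with TGF-β1. Of 20 other bZIP partners, 6 rose and 6 fell with TGF-β1 in the average over genotypes, with a median log2 change of -0.15 against -0.01 over all tested genes. Batf3 and Batf, JUN partners without a transactivation domain, fell, with log2 changes of -1.14 ± 0.13 (adjusted p = 4.06e-07) and -1.06 ± 0.13 (adjusted p = 1.56e-06). Atf6, a sensor of endoplasmic reticulum stress, fell too (-0.84 ± 0.08, adjusted p = 1.13e-08). Between MyS3KO and Smad3fl 0 of the 20 were higher and 6 lower untreated, among them the small MAF proteins Mafg (-1.02 ± 0.11) and Maff (-1.68 ± 0.25) and the repressor Jdp2 (-1.34 ± 0.24). With TGF-β1 1 was higher and 8 lower, and the lowest adjusted p were those of Mafg (-0.75 ± 0.11), Creb1 (-1.38 ± 0.24) and Maff (-1.24 ± 0.24).

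Of 34 tested other immediate early genes, 8 rose and 12 fell in the average TGF-β1 response (median -0.13), where 30.1% of all tested genes were called. Bhlhe40, a transcriptional repressor, went from 1.15 ± 0.205 to 10.3 ± 1.26 CPM in Smad2fl (n = 3) and rose by 2.31 ± 0.12 in the average. The kinases Sgk1 and Plk3 rose by 1.89 ± 0.08 and 2.45 ± 0.13 and the orphan receptor Nr4a1 by 1.85 ± 0.14, all with adjusted p of 4.00e-10 or lower. Untreated, 1 was higher and 14 lower in MyS3KO than in Smad3fl (median -0.75 against -0.03 over all tested genes), with Nr4a1 at 1.28 ± 0.551 against 5.52 ± 2.14 CPM. Of all tested genes 17.7% were called there and 9.38% called lower. The log2 difference was -2.13 ± 0.29 (adjusted p = 5.10e-05) for Nr4a1, -1.60 ± 0.25 (adjusted p = 1.80e-04) for Ier3 and -1.89 ± 0.32 (adjusted p = 3.96e-04) for Phlda1. With TGF-β1 2 were higher and 6 lower, where 28.2% of all tested genes were called and 13.2% called lower. The prostaglandin synthase gene Ptgs2 had a log2 difference of -2.66 ± 0.48 (adjusted p = 5.97e-04), Ier3 of -1.14 ± 0.25 (adjusted p = 0.00242) and Klf2 of 2.02 ± 0.40 (adjusted p = 0.00134). Of the 3 tested genes among the other EGR factors and their NAB corepressors, Nab2 rose with TGF-β1 (0.34 ± 0.09, adjusted p = 0.00626). Egr3 (-0.49 ± 0.23, adjusted p = 0.115) and Nab1 (0.18 ± 0.10, adjusted p = 0.208) missed the threshold. Egr3 was higher in treated MyS3KO than in treated Smad3fl (2.00 ± 0.53, adjusted p = 0.00833), at low levels of 2.67 ± 0.345 against 0.685 ± 0.576 CPM.

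Among 9 genes listed for the serum response factor, ternary complex factors and related ETS factors, 4 rose and 5 fell (median -0.38). Of all tested genes 30.1% were called in this average. Elk3, a ternary complex factor that can repress serum response genes, rose by 2.40 ± 0.09 (adjusted p = 9.69e-16), from 20.9 ± 0.848 to 114 ± 9.17 CPM in Smad2fl. Mkl2, a coactivator of the serum response factor, rose by 0.94 ± 0.07, while Elk1 (-0.71 ± 0.09) and Ets2 (-0.85 ± 0.10) fell, these 3 with adjusted p of 1.89e-06 or lower. Elk3 was the only gene of this list called between the libraries labelled MyS2KO and Smad2fl, lower with TGF-β1 (log2 difference -0.81 ± 0.16, adjusted p = 0.0327). Ets1 and Fli1 were lower in MyS3KO than in Smad3fl in both states, with log2 differences of -0.92 ± 0.14 and -0.39 ± 0.10 untreated and -0.99 ± 0.14 and -0.51 ± 0.10 with TGF-β1. Of 21 MAP kinase genes upstream of AP-1, 3 rose and 2 fell (median 0.04), where 30.1% of all tested genes were called. Map2k3, an activator of p38, rose by 1.82 ± 0.09 and the TAK1 partner Tab1 by 0.81 ± 0.10. Mapk14, p38α itself, fell (-0.93 ± 0.07), as did its substrate kinase Mapkapk2 (-1.10 ± 0.10), with adjusted p of 2.18e-06 or lower for these 4. In untreated MyS3KO 2 were higher (Map2k4 0.55 ± 0.12, Mapk9 0.71 ± 0.18) and 1 lower than in Smad3fl, where 17.7% of all tested genes were called. With TGF-β1 6 were higher and 2 lower (28.2% of all tested genes called), with Map2k4 at 0.62 ± 0.12, Mapk9 at 0.71 ± 0.18 and Mapk8 at -1.08 ± 0.27.

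Of 19 tested genes known as AP-1 or EGR targets, 9 rose and 2 fell with TGF-β1 in the average (median 0.33 against -0.01 over all tested genes). Of all tested genes 30.1% were called there. The cytokine Osm rose by 2.31 ± 0.15, the integrin Itgav by 1.59 ± 0.10 and Vegfa by 1.16 ± 0.10, with adjusted p of 2.87e-09 or lower. Untreated, 2 of the 19 were higher and 11 lower in MyS3KO than in Smad3fl (median -1.0), where 17.7% of all tested genes were called and 9.38% called lower. Among the lower were Il1b (10 ± 4.53 against 114 ± 79.9 CPM, -3.50 ± 0.53, adjusted p = 1.41e-04), Plaur, the urokinase receptor (-1.97 ± 0.32, adjusted p = 3.04e-04), and Cd44 (-1.02 ± 0.17, adjusted p = 3.84e-04). With TGF-β1 2 were higher and 8 lower, where 28.2% of all tested genes were called and 13.2% called lower. The log2 difference was -2.81 ± 0.53 for Il1b, -0.89 ± 0.17 for Cd44 and -4.16 ± 0.91 for Il6. Levels of Il6 were low, at 0.25 ± 0.156 CPM in treated MyS3KO against 4.35 ± 1.81 in treated Smad3fl. Most of these targets answer to other factors too, and no factor's share in them was tested. Between the libraries labelled MyS2KO and Smad2fl no gene of the lists of bZIP partners, EGR and NAB genes, immediate early genes, MAP kinases or targets was called in either state, while 3 feedback genes were lower with TGF-β1: Ski (-0.63 ± 0.11, adjusted p = 0.0165), Pmepa1 (-1.35 ± 0.28, adjusted p = 0.034) and Smad7 (-0.81 ± 0.17, adjusted p = 0.0394).

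Genes whose log2 CPM followed each member most closely over the 24 libraries were taken by Pearson's r. These are descriptions over libraries that share groups and depth, so no p is given. Fos was closest to Dtx4 (r = 0.982), Plec (0.977) and Elk3 (0.971). Jun was closest to Pim1 (0.925), Tspyl1 (0.916) and Cebpd (0.915), Junb to Zbtb2 (0.932), Sbno2 (0.930) and Rnf19b (0.900), and Jund to Rad9a (0.944), Stxbp2 (0.942) and Serhl (0.941). Fosl1 was closest to Csf3 (0.941), Mmp10 (0.924) and Ptges (0.917), each scattered over the Smad3fl libraries, and Fosl2 to Pcdh7 (0.928), Sdc1 (0.925) and Fgd3 (0.912). For Atf3 they were Metrnl (0.967), Irf5 (0.951) and Ccrl2 (0.950), for Egr1 Ctsh (0.920), Gm26637 (0.919) and Alas1 (0.913), for Egr2 Gm6829 (0.854), Gm45640 (0.849) and Ndufs5 (0.836), and for Fosb Zmynd8 (0.823), Mavs (0.820) and Rab3il1 (0.790). The likeness of Fosb was the weakest of the 10, in a gene with few reads.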

How the data were processed

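Polyadenylated RNA of 24 libraries was read as pairs of 150 bases, per the labels' protocols. The authors deposited raw read counts and FPKM values per Ensembl gene. The submitters' processing notes name the builds mm10 and GRCm38.p6 and the tools Cufflinks 2.1.1, HTSeq 0.6.1 and TopHat2 2.0.9; their roles, the counting mode and the strand setting were not given in the sources used here. The deposited FPKM equal the counts over the library total and a length per gene, shorter than the listed gene length for 7 of the 10 genes.

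Counts were scaled by TMM, filtered by filterByExpr on the 8 groups and fitted with edgeR 4.0.16 (R 4.3.3, limma 3.58.1), all 24 libraries in a model with a mean per group. The quasi-likelihood test was used, p-values were adjusted over all 14261 tested genes by Benjamini-Hochberg, and genes under 0.05 were called. The median biological coefficient of variation was 21.2%. The fit was tested on simulated counts. SE is the log2 change over the root of F. The average response weights the 4 genotypes equally. Principal components and likeness used log2(CPM + 0.5), with the 0.5 in CPM, which compresses differences of genes as low as Fosb and Fosl1. Motifs were searched in RefSeq promoter windows on both strands.

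Named are all 10 members, label checks, and by rule the list genes with the smallest p in the average response (up to 4 per list) or in a knockout comparison (up to 3 called); some genes the rule names are not reported here. The members and lists were chosen with earlier results of these data known. Alternatives were RLE scaling, no filter (any gene with at least 1 read), DESeq2 1.42.0, the compared groups alone, the library number as a block, and left-out libraries; leaving out both Smad3fl libraries numbered 1 was chosen after seeing the data. Same-numbered treated and untreated libraries deviated together at r = 0.254, 0.334 and 0.550 in MyS2KO and 0.539, 0.416 and 0.416 in Smad3fl, so the numbers were taken to pair there. Differently numbered libraries reached r = 0.294 in MyS2KO and -0.111 in Smad3fl. In MyS2KO this was above the lowest same-numbered r, so pairing is unsettled there. The choice rests on these same data and not on the labels.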

Additional observations from a re-analysis of the deposited data

How the results depend on the processing

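The tally covers 68 of the members' test results, chosen by the main fit. These were results called or more than 2 SE from 0, the average responses, and interactions of members called in that line. Of 1035 alternatives of them, 858 kept the direction and the side of the threshold, 81 lost the call, 61 gained it and 35 changed sign. The cause was not tested, and the tally does not describe the members' other results. With no filter 5 members were called in Smad2fl with TGF-β1 (1776 of all genes), 4 in the libraries labelled MyS2KO (586), 5 in Smad3fl (2017), 2 in treated MyS2KO against Smad2fl (313) and 8 in untreated Smad3fl against Smad2fl (4739). With the compared groups alone the counts were 4 in Smad2fl (2038 of all genes), 2 in MyS3KO (873), 3 in treated MyS2KO against Smad2fl (270) and 0 in untreated MyS3KO against Smad3fl (297). With the replicate block 6 were called in Smad2fl (3237 of all genes), 4 in those labelled MyS2KO (1032) and 5 for Smad3fl (3306). The block ended no call among the members, either in the single responses or in the knockout comparisons. In Smad2fl the same-numbered correlations were 0.0415, 0.224 and 0.258 and in MyS3KO 0.493, 0.0731 and 0.415, so numbers were not taken to pair there. Differently numbered libraries reached 0.073 in Smad2fl and 0.4 in MyS3KO. Each was above the lowest same-numbered value, as in those labelled MyS2KO, so these correlations do not settle where numbers pair. Without Smad3fl replicate 3 of both treatments 1 was called in Smad3fl (999 of all genes) and 8 in untreated Smad3fl against Smad2fl (5836); without replicate 1 of both treatments 2 were called in the latter (3248) and 2 with TGF-β1 (2527), and 1558 of all genes instead of 2531 in untreated MyS3KO against Smad3fl.

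Leaving out a library at a time gave 2 to 3 members called in Smad2fl, 1 to 2 in the libraries labelled MyS2KO, 1 to 5 in Smad3fl and 2 to 4 in MyS3KO. For MyS3KO against Smad3fl it gave 2 to 4 untreated and 0 to 4 with TGF-β1, and for Smad3fl against Smad2fl 2 to 8 and 2 to 6. Shares over all tested genes are not given beside these counts. They describe how stable the calls were and do not set the members apart from other genes. The sign was not settled for values near 0. The average response of Egr1 ranged from -0.0524 to 0.0738 and was 0.0248 without Smad3fl replicate 1 of both treatments, and that of Fosl1 from -0.35 to 0.14. In the Smad3 line the interaction of Fos ranged from -0.0465 to 0.44, of Fosl2 from -0.0599 to 0.69, of Egr2 from -0.0509 to 0.50 and of Jun from -0.24 to 0.20. For Jun it was -0.0284 with RLE scaling and with DESeq2, -0.0164 with no filter, -0.0508 with the replicate block and -0.26 without Smad3fl replicate 3 of both treatments.

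Over all tested genes, the compared groups alone called 975 instead of 1714 in Smad3fl, 873 instead of 1428 in MyS3KO, 297 instead of 2531 in untreated MyS3KO against Smad3fl, 2201 instead of 4762 in untreated and 5452 instead of 3614 in treated Smad3fl against Smad2fl. For the libraries labelled MyS2KO against Smad2fl the counts were 10 untreated and 60 treated, with 161 and 313 without the filter, 92 and 218 by DESeq2, and 0 and 270 from the groups alone. The interaction counts were 1 in the Smad2 line and 3 in the Smad3 line, with 13 and 161 without the filter, 8 and 15 by DESeq2, and 0 in both from the groups alone. With the replicate block 3237 instead of 1584 genes were called in Smad2fl, 2749 instead of 1428 in MyS3KO, 19 in untreated MyS2KO against Smad2fl, and 2 and 6 for the interactions; RLE scaling called 1 for that of the Smad3 line, and 0 were called there without Smad3fl replicate 1 of both treatments.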
